A study of Mus musculus with 28 samples.

Results

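The genes described here are 37 components of presynaptic transmitter release and synaptic vesicle recycling, taken by gene symbol from the 14879 genes listed in either table of the series. All 37 members were listed in both tables. The data are RNA sequencing libraries of bulk tissue from mice of a Myt1l knockout line. Myt1l encodes a neuronal transcription factor with zinc fingers. Adult prefrontal cortex (PFC) libraries came from 6 heterozygous (Het) and 6 wild-type (WT) animals, with 3 females and 3 males in each group by label. Libraries of embryonic cortex at stage E14.5 came from 4 homozygous (Hom) embryos (3 female, 1 male), 6 Het embryos (3 female, 3 male) and 6 WT embryos (5 female, 1 male). The labels give neither the strain nor the age of the adults in days. Each library carries its own identifier and is taken here as a separate animal.

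Levels are in CPM, read counts scaled to a fixed library total, recovered from the deposited log2 values. Changes are differences in log2(CPM + 0.5), tested across all genes with limma, and a gene is called when its Benjamini-Hochberg adjusted p is under 0.05. As a check of the labels, Myt1l measured 114 CPM ± 6.70 in Het PFC, against 158 CPM ± 8.48 in WT PFC (SD, n = 6 each). In E14.5 cortex it measured 20.2 CPM ± 2.35 in Hom (SD, n = 4) and 42.8 CPM ± 11.1 in Het, against 55.5 CPM ± 8.16 in WT (SD, n = 6 each). Het and WT embryos overlapped, and Myt1l was not called between them (log2 change -0.39, limma adjusted p = 0.125). The check is therefore weak for the Het embryos. Y-linked genes went against the labelled sex in 2 Het embryos, F10 and M11. These had the lowest Myt1l of the Het embryos, at 30.8 and 30.6 CPM. Both tables held the cortical excitatory neuron marker Neurod6, at 205 CPM in WT PFC and 1404 CPM in WT E14.5 cortex. In bulk tissue, fewer cells of a type and less RNA per cell cannot be told apart.

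At a presynaptic terminal, vesicles filled with transmitter are held at the active zone by scaffold proteins, primed by Unc13 proteins and fused with the plasma membrane by the SNARE proteins SNAP25, syntaxin 1 and synaptobrevin. After fusion, the ATPase NSF and its adaptor alpha-SNAP take the SNARE complexes apart. Vesicle membrane is taken back by clathrin-mediated endocytosis, in which the AP-2 adaptor selects cargo and recruits clathrin, dynamin cuts the vesicle neck, and synaptojanin and the chaperone HSC70 strip the coat. Neurons of the cortex build this machinery as axons and synapses mature, whereas AP-2 also serves endocytosis in cells outside the nervous system.

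The wild-type libraries set the scale of the gene set. Of the 37 members, 35 had a higher mean in adult PFC than in E14.5 cortex and 2 had a lower one, with a median log2 ratio of 4.01, against 0.26 over the 13071 genes in both tables. Every PFC library lay above every E14.5 library for 34 members and below for 2. Over all genes in both tables these shares were 42.7% and 30.2%. Age and dissected region differ together between these groups and cannot be told apart, and the tables were normalized separately, so no test was run on these ratios. Together the members took 1.84% to 1.92% of all CPM in WT PFC libraries and 0.206% to 0.227% in WT E14.5 libraries. Ap2m1, the mu subunit of AP-2, made up 9.73% ± 0.661 of that sum in WT PFC and 64.1% ± 1.47 in WT E14.5 cortex (SD, n = 6 each).

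**Figure D1:**
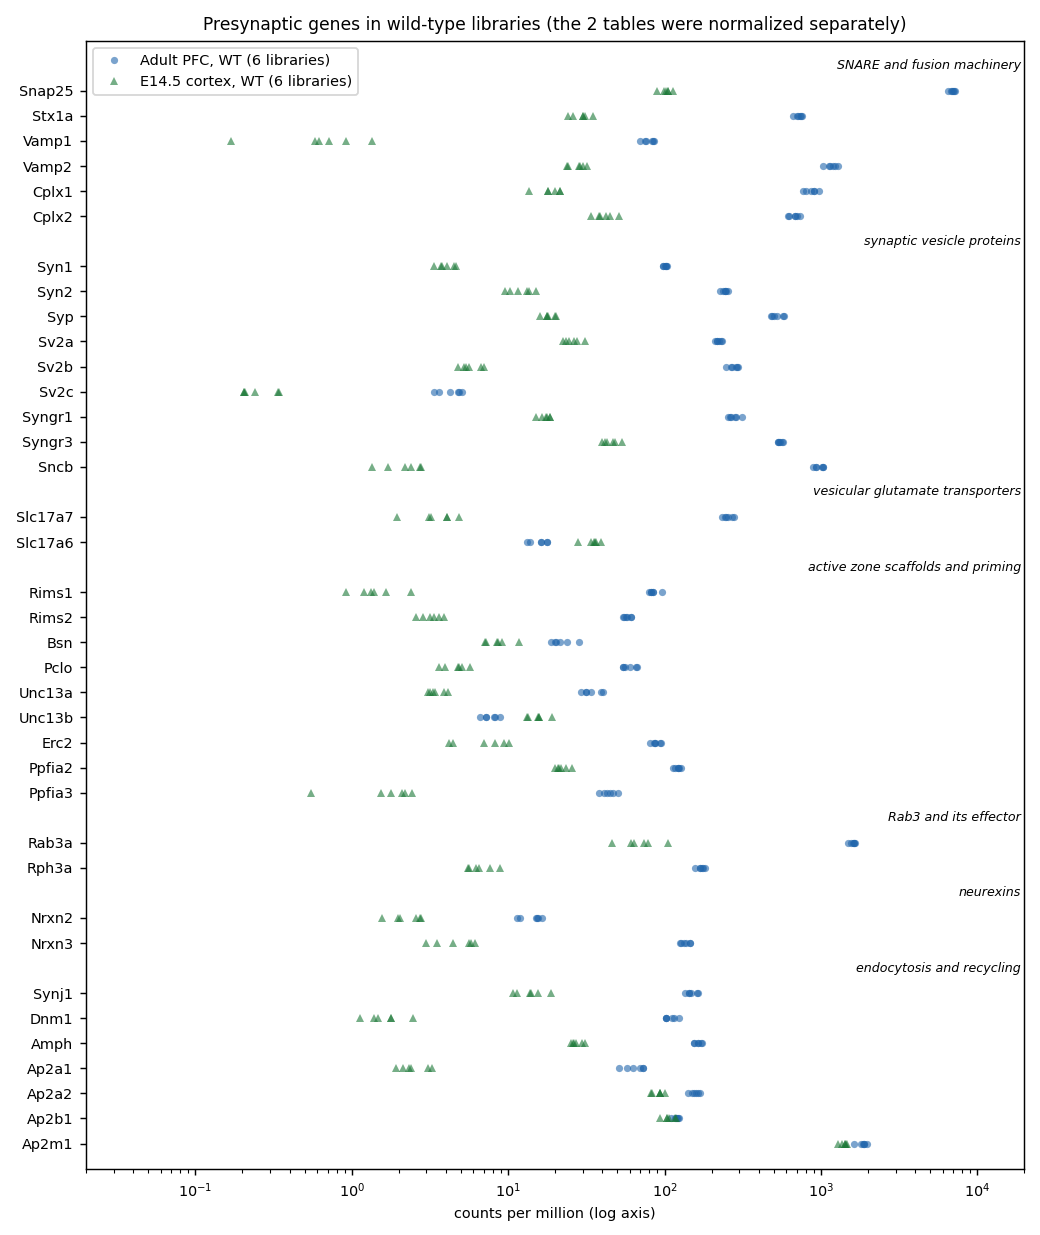
Levels of the 37 genes in WT libraries, in CPM on a log axis, with a circle for each adult PFC library and a triangle for each E14.5 cortex library; rows are grouped by role. The circles lie to the right of the triangles for all but 3 genes: Slc17a6 and Unc13b, where they lie to the left, and Ap2b1, where they mix.

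Among the fusion proteins, the ratio of adult PFC to E14.5 cortex was largest for Vamp1, at 109-fold. This synaptobrevin measured 79.0 CPM ± 6.31 in WT PFC and 0.726 CPM ± 0.393 in WT E14.5 cortex (SD, n = 6 each). Its paralog Vamp2, the main synaptobrevin of the forebrain, measured 1167 CPM ± 87.0 and 27.9 CPM ± 3.31 in the same groups, a 41.9-fold ratio. Snap25, a membrane SNARE, stood at 6916 CPM ± 230 in WT PFC and 102 CPM ± 7.99 in WT E14.5 cortex, a 67.6-fold ratio. Syntaxin 1A (Stx1a), the partner of Snap25 on the plasma membrane, had group means of 677 to 718 CPM in the PFC and 23.7 to 29.3 CPM at E14.5, with a ratio of 24.5 in WT. The complexins clamp and promote fusion. Cplx1 had group means of 867 to 879 CPM in the PFC and 18.7 to 22.6 CPM at E14.5, and Cplx2 of 673 to 770 CPM and 41.4 to 52.0 CPM, with WT ratios of 46.4 and 16.3.

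The vesicle proteins spread further. Sncb, which encodes beta-synuclein, had the highest ratio of the set, 444-fold, at 969 CPM ± 63.0 in WT PFC and 2.19 CPM ± 0.565 in WT E14.5 cortex (SD, n = 6 each). The synapsins tether vesicles in the reserve pool. Syn1 had group means of 100.3 to 100.6 CPM in the PFC and 4.02 to 4.51 CPM at E14.5, and Syn2 of 241 to 246 CPM and 12.2 to 14.2 CPM. Synaptophysin (Syp) had 450.3 to 524 CPM in the PFC and 16.3 to 18.3 CPM at E14.5. The synaptogyrins, which are related to synaptophysin, had group means of 268 to 278 CPM (Syngr1) and 514 to 545 CPM (Syngr3) in the PFC, and 14.7 to 17.3 CPM and 38.4 to 45.4 CPM at E14.5. The SV2 glycoproteins differed in both level and ratio. Sv2a measured 221 CPM ± 8.12 in WT PFC and 25.9 CPM ± 3.07 in WT E14.5 cortex, an 8.55-fold ratio, while Sv2b measured 276 CPM ± 17.5 and 5.79 CPM ± 0.869, a 47.6-fold ratio. Sv2c was rare in both tissues, at 4.31 CPM ± 0.688 in WT PFC and 0.256 CPM ± 0.0664 in WT E14.5 cortex.

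The vesicular glutamate transporters stood in opposite order in the adult and the embryo. Slc17a7 (VGLUT1) measured 255 CPM ± 16.9 in WT PFC and 3.54 CPM ± 1.01 in WT E14.5 cortex, whereas Slc17a6 (VGLUT2) measured 15.8 CPM ± 1.93 and 34.8 CPM ± 3.86 (SD, n = 6 each). The ratios were 72.2 and 0.454. A like pair occurred among the priming factors: Unc13a (MUNC13-1) had a ratio of 9.87, and Unc13b (MUNC13-2) one of 0.498, with 7.70 CPM ± 0.843 in WT PFC and 15.5 CPM ± 2.15 in WT E14.5 cortex. Unc13a had group means of 33.2 to 34.4 CPM in the PFC and 3.49 to 4.75 CPM at E14.5.

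The other active zone genes were all higher in WT PFC. The docking scaffolds Rims1 and Rims2 had group means of 84.4 to 85.4 CPM and 57.7 to 61.5 CPM in the PFC, against 1.48 to 1.81 CPM and 3.24 to 3.78 CPM at E14.5. The giant scaffolds were uneven: Bsn (bassoon) had 22.1 to 25.6 CPM in the PFC and 7.76 to 9.09 CPM at E14.5, a WT ratio of 2.54, and Pclo (piccolo) had 59.5 to 60.0 CPM and 4.01 to 4.66 CPM, a WT ratio of 12.8. The ELKS gene Erc2 had 84.2 to 88.1 CPM in the PFC and 7.25 to 9.40 CPM at E14.5. The liprin Ppfia2 was already at 21.9 to 22.6 CPM at E14.5, against 1.56 to 1.77 CPM for Ppfia3, and these stood at 121 to 123 CPM and 42.1 to 43.9 CPM in the PFC.

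Rab3a, the GTPase that marks vesicles for docking, had group means of 1495 to 1591 CPM in the PFC and 71.6 to 99.4 CPM at E14.5. Its effector rabphilin (Rph3a) had 171 to 179.8 CPM and 5.88 to 6.74 CPM. The neurexins are adhesion molecules of the presynaptic membrane. Nrxn2 had group means of 14.2 to 15.7 CPM in the PFC and 2.28 to 3.06 CPM at E14.5, and Nrxn3 of 136 to 149 CPM and 4.75 to 5.42 CPM.

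Endocytic genes ranged from some of the largest ratios of the set to some of the smallest. Dynamin 1 (Dnm1), the neuronal dynamin, had group means of 107 to 109 CPM in the PFC and 1.67 to 1.88 CPM at E14.5, a 65.5-fold ratio in WT. Synj1 (synaptojanin 1) had 149 to 151 CPM and 13.2 to 15.3 CPM, a 10.6-fold ratio, and Amph (amphiphysin) 151 to 163 CPM and 22.1 to 27.6 CPM, a 5.92-fold one. The alpha subunits of AP-2 differed: Ap2a1 measured 64.4 CPM ± 8.70 in WT PFC and 2.51 CPM ± 0.543 in WT E14.5 cortex, a 25.6-fold ratio, while Ap2a2 measured 156 CPM ± 9.49 and 90.9 CPM ± 7.19, a 1.71-fold ratio. Ap2m1 and Ap2b1, the mu and beta subunits, had ratios of 1.31 and 1.11. For Ap2b1 the WT PFC libraries (110 to 124 CPM) overlapped the WT E14.5 libraries (93.4 to 119 CPM).

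Levels can be ranked between genes only per length of transcript. Per kilobase of the longest annotated transcript, the WT PFC order was Snap25 (1417 CPM per kb), Rab3a (1022), Sncb (717.5), Ap2m1 (625.5) and Vamp2 (529), and Unc13b (0.522) and Sv2c (0.473) were lowest. In WT E14.5 cortex, Ap2m1 stood first at 478 CPM per kb. Rab3a followed at 46.0, Syngr3 at 23.1, Snap25 at 21.0, Ap2a2 at 19.6 and Ap2b1 at 19.0.

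The first genetic comparison asks what the loss of both Myt1l alleles does to these genes in the developing cortex. Ap2m1 and the vesicle protein Sv2a were lower in Hom than in WT E14.5 cortex, and no member was called higher. The count is 2 of 36 tested members, or 5.56%, against 7.6% of all tested genes called in either direction and 4.37% called lower. Sv2c did not pass the filter on low values (at least 1 CPM in 4 E14.5 libraries) and was not tested there. The median log2 change over the tested members was 0.04, against 0.02 over all genes, with 17 of 36 negative. At an unadjusted p under 0.05 stood 9 of 36 members (25%), against 23.2% of all genes.

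Ap2m1 (ENSMUSG00000022841, protein coding, chromosome 16, 20535478 to 20544909, plus strand, GRCm38) measured 1120, 1098, 1037 and 1127 CPM in the Hom embryos F01, F04, F09 and M02. The WT embryos ran from 1280 to 1458 CPM with a median of 1433 CPM. Every Hom embryo therefore lay below every WT embryo. Hom minus WT was -0.36 on the log2 scale (SE 0.065, limma adjusted p = 0.00267). It was called in all 16 alternative settings and without each of the 16 embryos in turn. Among embryos that share an identifier prefix in the labels, the log2 difference was -0.35 (3 Hom against 4 WT) and -0.36 (1 Hom against 2 WT).

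Sv2a (ENSMUSG00000038486, protein coding, chromosome 3, 96181151 to 96195521, plus strand) encodes the SV2 isoform that binds the antiepileptic drug levetiracetam. It measured 17.4, 20.8, 11.7 and 19.5 CPM in the Hom embryos F01, F04, F09 and M02, and 22.4 to 30.8 CPM with a median of 25.5 CPM in the WT embryos. These groups did not overlap either. Hom minus WT was -0.58 on the log2 scale (SE 0.14, limma adjusted p = 0.0137). Hom F09 was the lowest library, and without it the change was -0.39 and the call was lost (adjusted p = 0.0778).

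**Figure D2:**
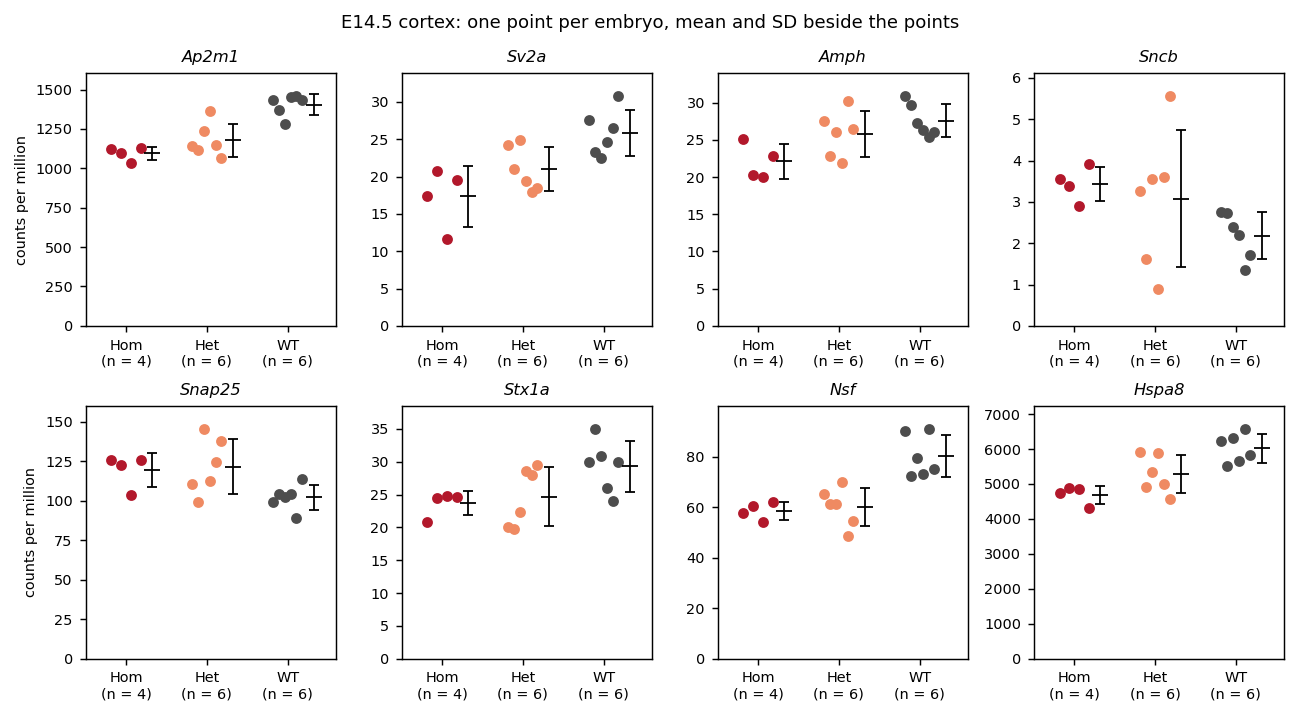
CPM of 6 members (Ap2m1, Sv2a, Amph, Sncb, Snap25, Stx1a) and of Nsf and Hspa8 in each E14.5 embryo, for Hom, Het and WT, on axes that start at 0; the bar beside the points is the mean with SD. For Ap2m1, Sv2a, Amph, Nsf and Hspa8 the Hom points lie below all WT points, and for Sncb above them.

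Groups that do not overlap were found for 4 of the 36 tested members (9.9% of all tested genes). Besides Ap2m1 and Sv2a these were Amph and Sncb, neither of which was called. Amphiphysin, which recruits dynamin to curved membrane, measured 25.2, 20.3, 20.1 and 22.9 CPM in Hom embryos and 25.3 to 30.9 CPM in WT embryos (log2 change -0.32, SE 0.11, adjusted p = 0.0717). It passed the threshold when libraries were centred on their median and when only Hom and WT were fitted. Sncb measured 3.55, 3.38, 2.91 and 3.90 CPM in Hom embryos and 1.34 to 2.76 CPM in WT embryos (log2 change 0.60, SE 0.29, adjusted p = 0.214). The next members by p were on opposite sides of WT within the same SNARE complex. Stx1a differed by -0.30 (SE 0.12, adjusted p = 0.132) and Snap25 by 0.23 (SE 0.095, adjusted p = 0.141). Their Hom and WT libraries overlapped.

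Summed over the members, Hom embryos ran from 1806 to 1963 CPM, below the WT range of 2063 to 2269 CPM. Without Ap2m1 the sums were 769 to 836 CPM in Hom and 735 to 835 CPM in WT, and these ranges overlapped. By role, no fusion gene, glutamate transporter, active zone gene, Rab3 gene or neurexin was called in Hom. The median log2 changes were 0.23 for the 6 fusion genes, -0.13 for the 8 tested vesicle proteins, 0.06 for the 9 active zone genes and -0.09 for the 7 endocytic genes.

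In Het embryos, which keep a Myt1l allele, Ap2m1 was again lower and no other member was called. This is 1 of 36 tested members (2.78%), against 5.83% of all tested genes called and 2.98% called lower. The median log2 change of the members was -0.01, against 0.03 over all genes, and 5 of 36 members (13.9%) were at an unadjusted p under 0.05, against 22.3% of all genes. No member had groups that did not overlap, against 2.57% of all genes. The WT embryos are the same as in the Hom comparison, so the comparisons are not independent.

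Ap2m1 ran from 1067 to 1361 CPM in Het embryos with a median of 1147 CPM, against 1280 to 1458 CPM in WT embryos. All 6 Het embryos lay below the WT mean, and Het M07 at 1361 CPM lay inside the WT range. Het minus WT was -0.27 on the log2 scale (SE 0.061, limma adjusted p = 0.0121). Without Het F07, the lowest Het embryo, the change was -0.23 and the call was lost (adjusted p = 0.0731), as it was without trend and robust variance moderation (adjusted p = 0.0669). The change was -0.19 among embryos of the larger identifier prefix and -0.38 among those of the smaller one.

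Snap25 came next by p: Het embryos ran from 98.9 to 146 CPM and WT embryos from 89.4 to 114 CPM (log2 change 0.26, SE 0.089, adjusted p = 0.0762). Without Het F10 and Het M11, the embryos whose Y-linked genes go against the label, the change was 0.36 and it was called. Stx1a differed by -0.30 (SE 0.12, adjusted p = 0.127) and Cplx1 by 0.31 (SE 0.14, adjusted p = 0.197), with overlapping groups. Sv2a differed by -0.27 in Het (SE 0.13, adjusted p = 0.223), with all 6 Het embryos below the WT mean.

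Hom against Het called 0 of the 36 tested members by limma, where 0.00805% of all tested genes were called, namely Myt1l itself. At an unadjusted p under 0.05 stood 2 members (5.56%), against 5.12% of all genes. These were Vamp1, at 1.17 CPM ± 0.414 in Hom (SD, n = 4) and 0.608 CPM ± 0.327 in Het (SD, n = 6), and Sv2a, at 17.3 CPM ± 4.04 and 21.0 CPM ± 2.98. Their log2 differences were 0.70 (95% interval 0.07 to 1.33) and -0.31 (95% interval -0.60 to -0.01). Amph and Syngr3 followed with -0.22 and -0.20, and the adjusted p was 0.957 for all 4. For Ap2m1 the difference was -0.09 (95% interval -0.23 to 0.04). Vamp1 entered the test at the limit of the filter: only Hom F04, Hom M02, Het M11 and WT F06 reached 1 CPM. Its place in the test thus rests partly on high Hom values, and its p is no independent support for a difference.

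**Figure D3:**
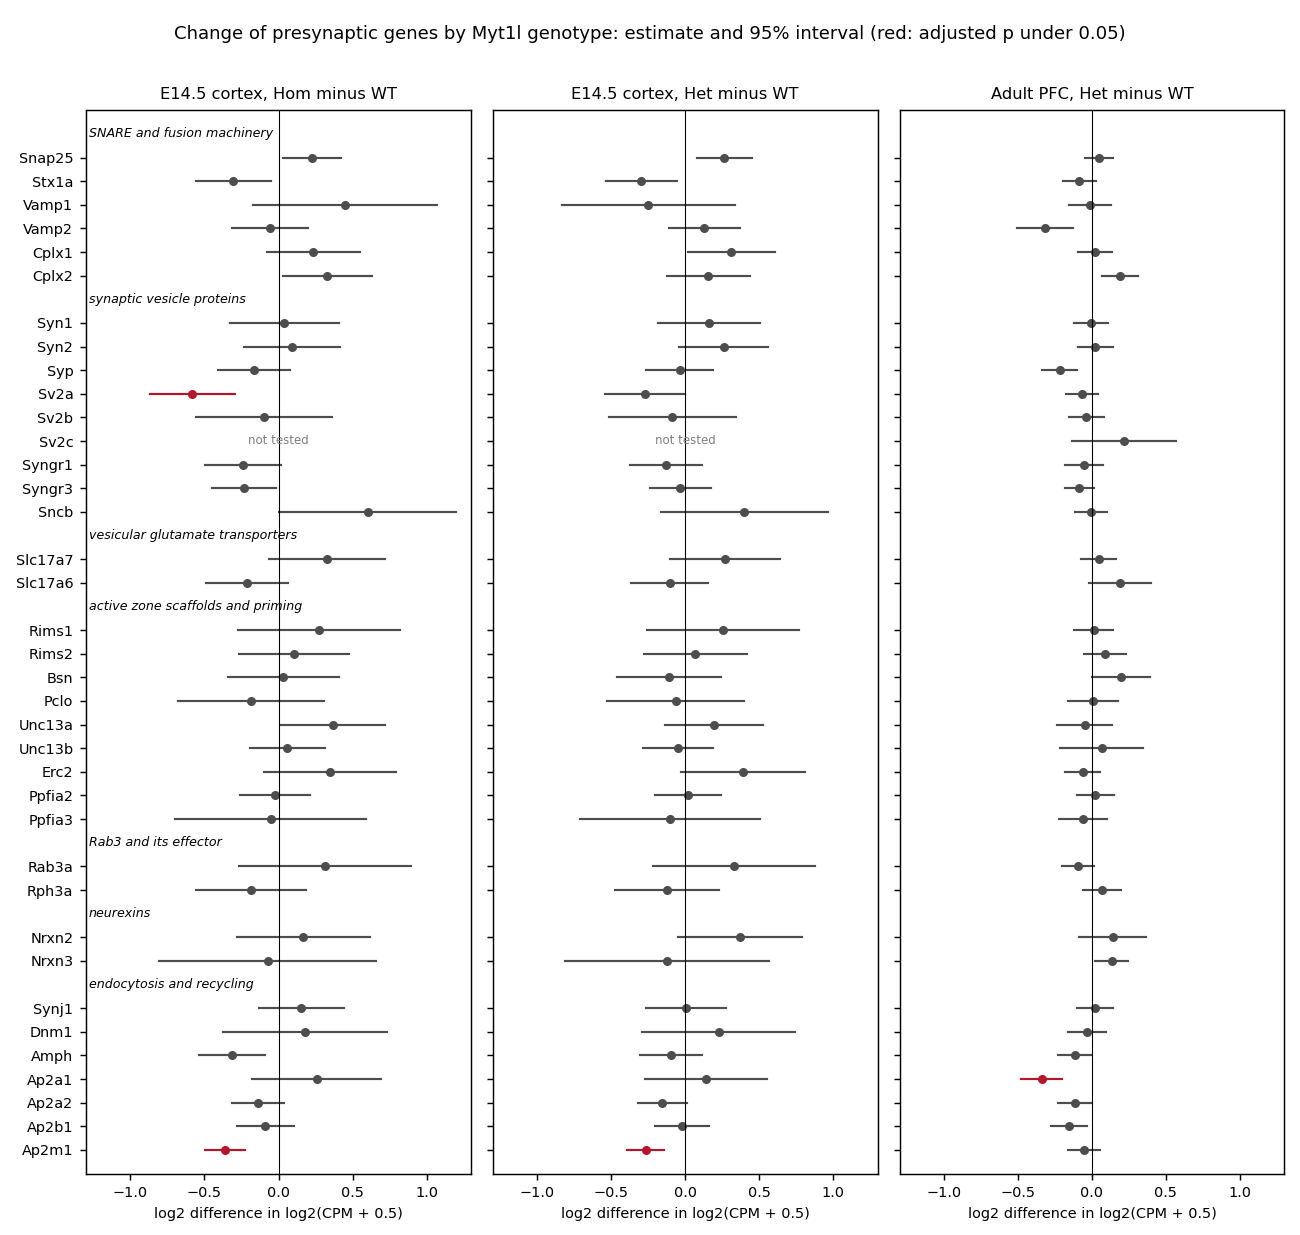
Change of each member with its 95% interval, as a difference in log2(CPM + 0.5), for Hom and Het against WT in E14.5 cortex and Het against WT in adult PFC; genes are grouped by role and called genes are red. Ap2m1 is called in both E14.5 panels, Sv2a in the Hom panel and Ap2a1 in the PFC panel.

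In the adult PFC of Het animals, the called member was another subunit of the same adaptor, Ap2a1, which was lower. This is 1 of 37 tested members (2.70%), against 0.404% of all tested genes called and 0.225% called lower. The median log2 change of the members was -0.01, against 0.01 over all genes. At an unadjusted p under 0.05 stood 8 of 37 members (21.6%), against 13.6% of all genes. No member had groups that did not overlap, against 0.668% of all genes.

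Ap2a1 (ENSMUSG00000060279, protein coding, chromosome 7, 44900373 to 44929496, minus strand, GRCm38) encodes the alpha-1 large subunit. It measured 46.6, 41.9 and 40.6 CPM in Het females and 63.1, 56.4 and 57.5 CPM in Het males. The WT values were 57.4, 51.4 and 62.8 CPM in females and 69.5, 72.5 and 72.5 CPM in males. Het and WT did not overlap within either sex, and they overlapped when the sexes were pooled. The share of all genes that separate within a sex, where groups are small, was not determined. Het minus WT was -0.34 on the log2 scale (SE 0.067, limma adjusted p = 0.0283), with all 6 Het animals below the WT mean.

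This call was the least steady of those for Ap2m1, Sv2a and Ap2a1: it held in 10 of 15 alternative settings and without 7 of the 12 animals in turn. It was lost without trend and robust variance moderation, without sex as a covariate, in males alone (-0.28), with the identifier prefix as a block (log2 change -0.33) and with a correction for GC content and length (-0.25), and without WT F04, WT F10, WT M11, Het F04 or Het F07. Within identifier prefixes the change was -0.25 (2 Het against 2 WT) and -0.41 (4 Het against 3 WT). The gene also shares 720 exonic bases, 16.7% of its exonic length, with Fuz on the opposite strand. Fuz ran from 6.13 to 7.92 CPM in Het PFC and from 8.16 to 10.7 CPM in WT PFC (log2 change -0.38, SE 0.12, adjusted p = 0.155). The strand setting of the counting is unknown here, so reads of the shared stretch cannot be told apart.

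The next adult members by p were Syp, Vamp2 and Cplx2, none of them called. Synaptophysin, an abundant vesicle membrane protein, ran from 409 to 506 CPM in Het PFC with a median of 437 CPM, against 476 to 576 CPM with a median of 513 CPM in WT PFC (log2 change -0.22, SE 0.058, adjusted p = 0.0798). Vamp2 ran from 723 to 1215 CPM in Het PFC and from 1035 to 1285 CPM in WT PFC (log2 change -0.32, SE 0.089, adjusted p = 0.124). Cplx2 ran from 691 to 857 CPM in Het PFC and from 617 to 733 CPM in WT PFC (log2 change 0.19, SE 0.060, adjusted p = 0.137). All 6 Het animals lay above the WT mean for Cplx2 and all 6 below it for Syp.

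Of the 7 endocytic members, 6 had a negative log2 change in Het PFC, with a median of -0.11, against 46.2% of all tested genes negative. The values were -0.16 for Ap2b1 (adjusted p = 0.226), -0.12 for Amph (0.345), -0.11 for Ap2a2 (0.381), -0.05 for Ap2m1 (0.695) and -0.04 for Dnm1 (0.834), beside the called Ap2a1, and Synj1 differed by 0.02 (0.914). Of 22 further endocytosis genes that are not members, 14 were negative in Het PFC, with a median of only -0.02. Both neurexins had positive values, 0.13 for Nrxn3 (SE 0.054, adjusted p = 0.252) and 0.14 for Nrxn2 (SE 0.11, adjusted p = 0.596). Of the 9 active zone genes, the largest difference was that of Bsn, at 0.20 (SE 0.094, adjusted p = 0.356). Snap25, the member with the most reads, differed by 0.05 (95% interval -0.05 to 0.14).

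Whether the Het change differed by sex was tested with an interaction term in the PFC, which called 0 members and 0% of all tested genes by limma. At an unadjusted p under 0.05 stood 3 members (8.11%), against 8.48% of all genes. Vamp2 had the lowest p of the set. It measured 796, 723 and 858 CPM in Het females and 1115, 996 and 1215 CPM in Het males, against 1035 to 1285 CPM in WT females and 1127 to 1199 CPM in WT males. The Het females lay below every other animal. All 3 Het females share an identifier prefix, while Het M05 and Het M08 carry another, so sex and prefix are partly confounded among Het animals. The interaction, male minus female change, was 0.51 on the log2 scale (SE 0.12, adjusted p = 0.256). It passed the threshold without WT F06 (adjusted p = 0.0378). Cplx1 (0.25, SE 0.10), Syn2 (-0.22, SE 0.11) and Amph (0.18, SE 0.10) followed, with adjusted p of 0.523, 0.585 and 0.665.

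**Figure D4:**
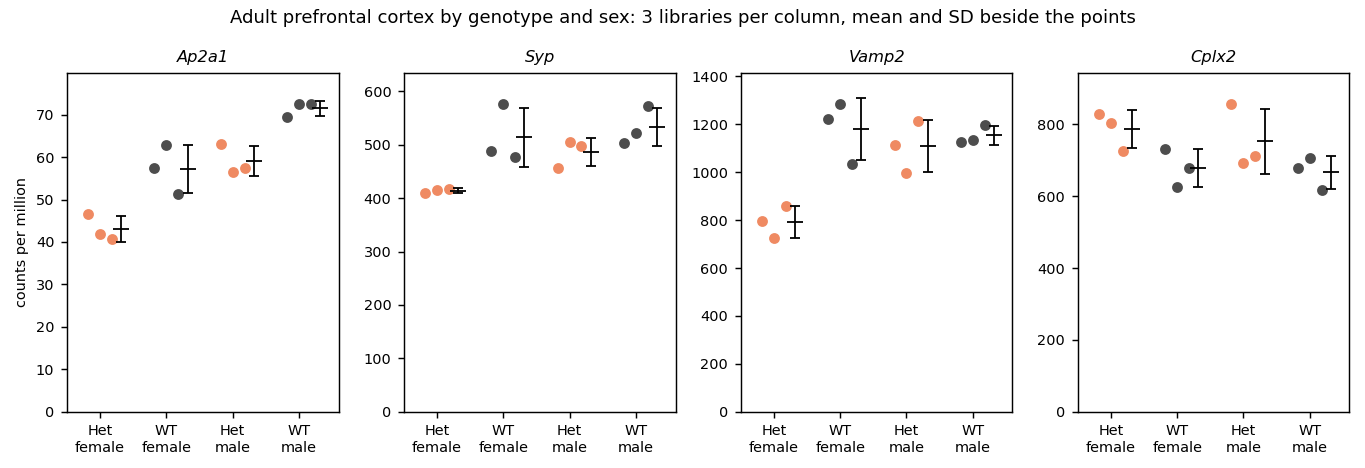
CPM of Ap2a1, Syp, Vamp2 and Cplx2 in each adult PFC library, split by genotype and sex, with the mean and SD of 3 libraries beside the points and axes that start at 0. Ap2a1 is lower in Het than in WT within each sex, and for Vamp2 the 3 Het females lie below the other 9 animals.

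The AP-2 complex consists of an alpha, a beta, a mu and a sigma subunit, and the members include all but sigma. In Hom E14.5 cortex the log2 changes were -0.36 for Ap2m1, -0.14 for Ap2a2, -0.09 for Ap2b1 and 0.26 for Ap2a1, and in Het E14.5 cortex -0.27, -0.15, -0.02 and 0.14 in that order. The sigma subunit gene Ap2s1, which is not a member, differed by 0.15 in Hom (adjusted p = 0.413) and by 0.19 in Het (adjusted p = 0.243). In Het PFC the log2 changes were -0.05 for Ap2m1, -0.11 for Ap2a2, -0.16 for Ap2b1, -0.34 for Ap2a1 and -0.13 for Ap2s1. The 95% interval of Ap2m1 in Het PFC was -0.16 to 0.06 and that of Ap2m1 in Het E14.5 cortex -0.39 to -0.14. The difference between the tissues was not tested, because their tables were normalized separately.

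**Figure D5:**
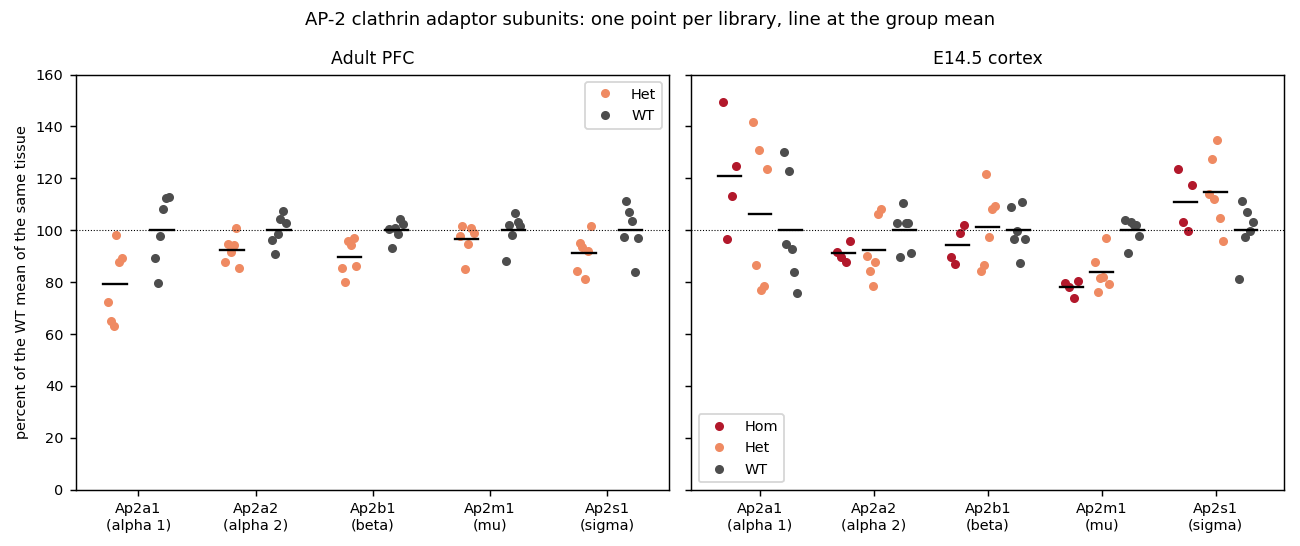
Level of the AP-2 subunit genes in each library as a percentage of the WT mean of the same tissue, for Het and WT in adult PFC and for Hom, Het and WT in E14.5 cortex; lines are group means and the axis starts at 0. In E14.5 cortex the Hom points of Ap2m1 lie apart from the WT points, and in the PFC Ap2a1 has the lowest Het mean.

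Promoter sequence was available for 32 of the 37 members, with 43 windows of 250 bases before to 50 after an annotated start (RefSeq, GRCm38.p6). MYT1-family zinc fingers are known to bind a core of AAGTT. That core was searched on both strands, where the reverse strand reads AACTT. It occurred in 11 of the 43 member windows (25.6%) and in 39.3% of the 32851 windows of all genes. Member windows were richer in G and C, with a median of 61.3% against 52.7% for all windows. The windows of the called genes Ap2m1, Sv2a and Ap2a1 are shown because these genes carry the calls, and a window of Slc17a6 is shown because it holds a match on each strand. Matches are in capitals. The windows are chr16:20535230-20535529 on the plus strand for Ap2m1, chr3:96180977-96181276 on the plus strand for Sv2a, chr7:44929441-44929740 on the minus strand for Ap2a1 and chr7:51621580-51621879 on the plus strand for Slc17a6.
Ap2m1: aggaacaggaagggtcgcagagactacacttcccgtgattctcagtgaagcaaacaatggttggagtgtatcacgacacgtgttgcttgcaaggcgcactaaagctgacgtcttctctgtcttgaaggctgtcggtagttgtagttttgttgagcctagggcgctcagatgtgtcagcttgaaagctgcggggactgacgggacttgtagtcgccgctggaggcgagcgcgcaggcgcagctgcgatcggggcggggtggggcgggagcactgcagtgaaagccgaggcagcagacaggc
Sv2a: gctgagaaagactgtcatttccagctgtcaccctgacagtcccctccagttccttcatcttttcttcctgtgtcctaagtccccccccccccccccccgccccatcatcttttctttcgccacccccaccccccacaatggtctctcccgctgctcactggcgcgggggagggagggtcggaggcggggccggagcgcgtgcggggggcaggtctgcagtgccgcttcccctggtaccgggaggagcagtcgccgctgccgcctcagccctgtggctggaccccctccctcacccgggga
Ap2a1: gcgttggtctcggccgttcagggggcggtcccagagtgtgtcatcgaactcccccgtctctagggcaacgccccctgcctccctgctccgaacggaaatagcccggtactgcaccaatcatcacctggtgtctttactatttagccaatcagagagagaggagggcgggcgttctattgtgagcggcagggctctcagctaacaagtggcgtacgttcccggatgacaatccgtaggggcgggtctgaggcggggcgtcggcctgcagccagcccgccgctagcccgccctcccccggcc
Slc17a6: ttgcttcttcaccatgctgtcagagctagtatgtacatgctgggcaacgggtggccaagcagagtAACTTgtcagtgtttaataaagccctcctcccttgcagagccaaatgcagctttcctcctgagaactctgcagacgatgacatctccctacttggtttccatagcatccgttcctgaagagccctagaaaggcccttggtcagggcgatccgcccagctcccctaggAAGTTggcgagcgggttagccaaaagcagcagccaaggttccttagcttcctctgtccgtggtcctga
None of the windows of the 3 called genes held the core. A window without it says only that these letters are not in that stretch.

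The genes that work beside the members were described from a list of 66 other presynaptic genes, of which 55 were tested at E14.5 and 65 in the PFC. In Hom E14.5 cortex, 4 were lower and 2 higher (10.9% called, against 7.6% of all genes). Nsf, the ATPase that dismantles SNARE complexes, measured 57.5, 60.4, 53.9 and 62.2 CPM in Hom embryos F01, F04, F09 and M02, against 72.4 to 90.9 CPM in WT embryos. No Hom embryo overlapped a WT embryo, and the log2 change was -0.45 (SE 0.098, adjusted p = 0.0081). Napa, which encodes the adaptor alpha-SNAP, fell by 0.22 (SE 0.064, adjusted p = 0.0318). Hspa8, the HSC70 chaperone that strips clathrin coats, fell by 0.35 (SE 0.069, adjusted p = 0.00411), at 4694 CPM ± 258 in Hom (SD, n = 4) and 6020 CPM ± 412 in WT (SD, n = 6). Rab3b, a vesicle GTPase related to Rab3a, fell by 0.56 (SE 0.12, adjusted p = 0.0081).

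Both genes called higher act in endocytosis, as do 20 of the 55 tested genes, among them Hspa8, which was called lower. Bin1, the amphiphysin 2 gene, was 0.77 higher on the log2 scale (SE 0.21, adjusted p = 0.0245) and measured 6.36 CPM ± 1.68 in Hom (SD, n = 4) and 3.51 CPM ± 0.878 in WT (SD, n = 6). Picalm, a clathrin assembly protein, was 0.30 higher (SE 0.094, adjusted p = 0.0483). In Het E14.5 cortex, 1 of the 55 was called (1.82%, against 5.83% of all genes): Nsf ran from 48.6 to 70.1 CPM in Het embryos, below the WT range of 72.4 to 90.9 CPM (log2 change -0.41, SE 0.092, adjusted p = 0.0108). Within identifier prefixes the log2 difference of Nsf was -0.29 (4 Het against 4 WT) and -0.68 (2 against 2). Hom against Het called 0 of the 55 by limma, with 5 at an unadjusted p under 0.05 (9.09%, against 5.12% of all genes). The lowest p values were those of Syngr2, a synaptogyrin (-0.41, SE 0.15), at 12.6 CPM ± 2.00 in Hom (SD, n = 4) and 17.0 CPM ± 3.03 in Het (SD, n = 6), and of Hspa8 (-0.18, SE 0.071), with an adjusted p of 0.957 for both. In Het PFC, 0 of 65 were called by limma, where 0.404% of all genes were, with 10 at an unadjusted p under 0.05 (15.4%, against 13.6% of all genes). The lowest p values there were those of Epn1 (epsin 1, an AP-2 binding protein; log2 change -0.25, SE 0.065, adjusted p = 0.073) and Cask, a presynaptic scaffold (0.17, SE 0.062, adjusted p = 0.211). Nsf measured 844 CPM ± 64.5 in Het PFC and 887 CPM ± 26.5 in WT PFC (SD, n = 6 each). The interaction with sex called 0 of 65 by limma, with 6 at an unadjusted p under 0.05 (9.23%, against 8.48% of all genes), led by the vesicle GTPase gene Rab3c (male minus female change -0.40, SE 0.13, adjusted p = 0.485) and the vesicle amino acid transporter gene Slc6a17 (-0.37, SE 0.15, adjusted p = 0.523).

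Markers of cell types moved at E14.5 as well. Among 6 postmitotic neuron markers, Tubb3 was lower in Hom (log2 change -0.26) and in Het (-0.23). The sum of that list was 5029 to 5902 CPM in Hom, 5173 to 6227 CPM in Het and 5730 to 6802 CPM in WT. Most of it was Tubb3 itself, at 3694 to 4280 CPM in Hom, 3809 to 4511 in Het and 4386 to 5291 in WT. Of the 6 markers, 4 had a positive log2 change in each comparison, with medians of 0.12 in Hom and 0.16 in Het. In Hom, Sox2 of progenitors (0.59), Dlx1 of interneurons (0.89), Ppp1r1b of striatal neurons (0.72) and Tbr1 of deep-layer neurons (0.45) were higher. All 7 interneuron and ventral telencephalon markers were positive in Hom, but only 1 was at an unadjusted p under 0.05. Their sum ran from 36.7 CPM in Hom F09 to 124 CPM in Hom F01, against 28.2 to 57.8 CPM in WT. The ranges overlapped, so the rise was not shared by all Hom embryos. In Het, 3 of 6 cortical projection neuron markers were called, against 5.83% of all tested genes. All 3 were higher, with Tbr1 (0.55) and Neurod6 (0.24) among them. All 6 markers were positive both in Het (median 0.27) and in Hom (median 0.32, 1 called). Ogn of the meninges was also higher in Het (0.76), with a meningeal sum of 219 to 328 CPM in Het and 141 to 299 CPM in WT. The choroid plexus markers were not called, and nearly all of the sum of the 4 tested was Ttr. All 4 were positive in Het (median 0.54), with a sum of 2990 to 5180 CPM in Het and 1389 to 3970 CPM in WT. In Hom their median was -0.08 against WT, with a sum of 1582 to 2870 CPM, and against Het all 4 were negative and at an unadjusted p under 0.05 (median -0.68). All 9 mitochondrially encoded genes were positive against WT in Hom (median 0.22, mt-Co3 called) and in Het (median 0.33, mt-Co2 and mt-Co3 called), with sums of 6772 to 10920 CPM in Hom and 6568 to 10990 CPM in Het, against 5943 to 9034 CPM in WT. In Het PFC the called marker was the globin gene Hbb-bt (-0.54). The erythroid sum there was 270 to 427 CPM in Het and 287 to 499 CPM in WT. Lists without a call also leaned to one side in Het PFC. Of 6 tested striatal markers, 5 were negative (median -0.21), and 2 were at an unadjusted p under 0.05. Of 5 tested interneuron markers, 4 were positive (median 0.22), and 2 were at that p. All 5 microglial markers were negative (median -0.13), with 1 at that p. The part of these shifts in the results for Ap2m1, Sv2a, Nsf, Hspa8 and Ap2a1 was not tested.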

How the data were processed

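RNA was measured by sequencing in bulk mouse E14.5 cortex and adult PFC. The labels' protocols name a Zymo kit for extraction and the SMARTer Ultra Low RNA kit for libraries. Tools listed by the submitters' processing notes are STAR, HTSeq, Bowtie2 and Trimmomatic, and the genome build is mm10; their versions, roles and strand setting are not given in the sources. The authors deposited, per tissue, log2 CPM values after RUVr, a step that removes estimated unwanted variation, per the file names and values. The prior count of 2 and the steps between low values were read from the values. With a tolerance of 0.01, 100% of values came out as whole numbers, which had been scaled and adjusted by the authors. Sequencing depth is therefore unknown. The recovered totals, which are not depths, ran from 19601294 to 21275162 per PFC library and from 27827467 to 30811856 per E14.5 library. A step of 1 was worth 0.0486 to 0.0495 CPM in the PFC and 0.0335 to 0.0344 CPM at E14.5.

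CPM was recovered from the log2 values. A gene was tested where 6 PFC or 4 E14.5 libraries or more reached 1 CPM (12870 and 12429 genes). On log2(CPM + 0.5), where low genes show too small a change, limma 3.58.1 in R 4.3.3 (lmFit, eBayes with trend and robust) was fitted per tissue with genotype and labelled sex, and p-values were adjusted over all tested genes. Genes were annotated with GENCODE vM21 on GRCm38. The libraries carry separate identifiers.

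The members and all gene lists were chosen with earlier results of these data known. Every member was given with its level, and called members were described in full. Per comparison, the 4 members with the lowest p were given with log2 change and adjusted p, some without library values or SE. Genes of the other presynaptic list were named where called, otherwise the 2 with the lowest p. The pair Amph and Sncb was also described for groups that do not overlap, and the PFC values of endocytic genes, neurexins, Bsn and Snap25, the subunit Ap2s1 and the overlapping gene Fuz were chosen after their values were seen. Alternatives changed the pseudocount, filter, scaling, variance model, covariates, sexes and single libraries. Tests were tried on simulated data. Figures were drawn with matplotlib 3.10.9. One marker gene is not reported here.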

Additional observations from a re-analysis of the deposited data

Results flagged for a closer look

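A single library stood far from the rest of its group for 8 of 185 combinations of a member and a group, where chance flags about 1 in 20. In Het E14.5 cortex, Syn1 was at 6.16 CPM in F07 (others 3.93 to 4.53 CPM) and Syp at 13.95 CPM in M11 (others 17.5 to 19.2 CPM). Het F10 was high for Sv2b, at 9.64 CPM (others 3.18 to 5.25 CPM). Het F10 was also flagged for Sv2c, at 0.543 CPM (others 0.0338 to 0.17 CPM). These Sv2c values are near the floor, as a step in Het F10 is worth 0.0339 CPM, and Sv2c was not tested at E14.5. In Hom E14.5 cortex, Snap25 was at 103 CPM in F09 (others 123 to 126 CPM) and Stx1a at 20.9 CPM in F01 (others 24.5 to 24.8 CPM). In the PFC, Cplx1 was at 961 CPM in Het M05 (others 841 to 885 CPM) and Rims1 at 95.6 CPM in WT F04 (others 79.3 to 84.2 CPM). None of these genes was called in the comparison of its group with WT.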

How the results depend on the processing

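No result changed direction past the threshold under any alternative run. The 2 members called in Hom E14.5 cortex were 2 in 14 of 16 other settings and 3 in the other two (Amph added, with libraries centred on their median and with only these groups fitted), and 1 to 2 without single libraries. The single member called in Het E14.5 cortex was 0 without trend and robust variance moderation, 2 without the embryos whose Y-linked genes go against the label (Snap25 added), and 0 to 2 without single libraries. The single member called in Het PFC was 0 without trend and robust moderation, 0 without the sex covariate, 0 with the identifier prefix as a block, 3 in females alone (Ap2a1, Syp and Vamp2), 0 in males alone, and 0 to 2 without single libraries; with GC and length correction the count was 1, with Syp in place of Ap2a1. The interaction with sex gave 0 members, and 0 to 1 without single libraries. Over all genes, the 944 calls in Hom E14.5 cortex were 468 without trend and robust moderation, 511 with the directions of the authors' adjustment as covariates and as few as 489 without a library. The 724 in Het E14.5 cortex were 225 without that moderation, 379 with only the 2 groups, 450 in females, 335 with those directions, 358 with GC and length correction and 131 to 1177 without single libraries. The 52 in Het PFC were 85 with TMM scaling, 0 without that moderation, 2 without the sex covariate, 19 with the prefix block, 340 in females, 2 in males, 17 with those directions and 3 to 127 without single libraries. The single call of Hom against Het, Myt1l, was 0 in 7 settings. The cause was not tested. No paired analysis was run, because the numbers in the labels are suffixes of separate identifiers and pair no samples. What the shared identifier prefix stands for is not known here.

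Depth is unknown and the deposited values had been adjusted for unwanted variation by the authors, which the tests ignore; with the adjusted directions as covariates the called members stayed called. Low members such as Vamp1 and Dnm1 in E14.5 cortex rest on values near 1 CPM, where a fold on the log2(CPM + 0.5) scale is understated.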
